A study of Mus musculus with 12 samples.

Results

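The Fc gamma receptors are the cell-surface proteins that bind the constant (Fc) part of immunoglobulin G (IgG). The 6 genes described here were taken by symbol from the 55281 genes of the count table, namely the activating receptors Fcgr1, Fcgr3 and Fcgr4, the inhibitory receptor Fcgr2b, the signal subunit Fcer1g and the neonatal Fc receptor Fcgrt. All 6 genes passed the filter on low counts that left 18427 genes for testing. RNA was sequenced from gonadal white adipose tissue (GWAT) of mice in 4 groups of 3 libraries, and each library was a pool of tissue from 3 mice. Wild-type (WT) mice were Hoip fl/fl AdipoQ.Cre- and HoipA-KO mice were Hoip fl/fl AdipoQ.Cre+, so the mice of both genotypes carried floxed Hoip (Rnf31, the catalytic subunit of the linear ubiquitin ligase complex LUBAC) and the adiponectin-driven Cre deleted it in mature adipocytes alone. From 6 weeks of age the mice of each genotype ate a control diet (CD) with 14% fat or a high-fat diet (HFD) with 60% fat for 16 weeks, which made them 22 to 24 weeks old at harvest. Nothing in the labels ties a pool to a litter or day, so the p-values measure the spread between pools.

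Mouse cells read IgG through receptors of opposite sign. FcγRI (Fcgr1, the high-affinity receptor), FcγRIII (Fcgr3) and FcγRIV (Fcgr4) assemble with the common γ chain encoded by Fcer1g, whose activation motif (ITAM) recruits the kinase Syk when immune complexes cross-link the receptors. FcγRIIb (Fcgr2b) carries an inhibitory motif (ITIM) that recruits the phosphatase SHIP-1 (Inpp5d), and it is also the Fc gamma receptor of B cells. FcRn (Fcgrt) resembles an MHC class I molecule, pairs with β2-microglobulin (B2m) inside endosomes and returns IgG and albumin to the circulation. In adipose tissue the activating receptors are best known from macrophages.

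Of the 6 genes, 4 lie in a stretch of 275.7 kb on chromosome 1 (build GRCm38). They are Fcgr2b (170958617 to 170976547, minus strand), Fcgr4 (171018920 to 171029761, plus strand), Fcgr3 (171051174 to 171064935, minus strand) and Fcer1g (171229572 to 171234365, minus strand). Fcgr1 lies on chromosome 3 (96282909 to 96293969, minus strand) and Fcgrt on chromosome 7 (45092990 to 45103851, minus strand). Annotated antisense genes overlap Fcgr2b (Gm38204) and Fcgrt (Gm45669). Each antisense gene had between 0 and 3 counts in any library.

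The coding sequences of Fcgr2b and Fcgr3 were 86.7% identical over 782 aligned bases, whereas the other pairs of the 4 receptor genes were 64.1% to 68.6% identical. The likeness lay in the exons that encode the IgG-binding extracellular part, with 94.9% identity in exon 3 and 98.0% in exon 4 of Fcgr2b-201. The longest stretch without a difference was 129 bases, over the junction of exons 3 and 4. It is shown here in capitals with 30 bases of coding sequence on each side, because a read inside it fits the inhibitory and the activating gene equally well. Its genomic ends, with the intron between, are chr1:170966674-170968081 for Fcgr2b and chr1:171054167-171057792 for Fcgr3, both on the minus strand.
Fcgr2b: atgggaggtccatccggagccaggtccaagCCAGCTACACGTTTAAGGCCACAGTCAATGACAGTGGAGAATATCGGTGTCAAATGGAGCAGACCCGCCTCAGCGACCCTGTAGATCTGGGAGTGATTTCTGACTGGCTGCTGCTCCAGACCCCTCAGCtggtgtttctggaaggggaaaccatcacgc
Fcgr3: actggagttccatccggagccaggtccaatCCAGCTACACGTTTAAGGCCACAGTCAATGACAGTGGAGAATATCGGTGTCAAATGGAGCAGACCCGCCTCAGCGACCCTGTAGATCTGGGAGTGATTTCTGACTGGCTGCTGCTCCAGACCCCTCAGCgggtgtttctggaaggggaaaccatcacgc

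**Figure D1:**
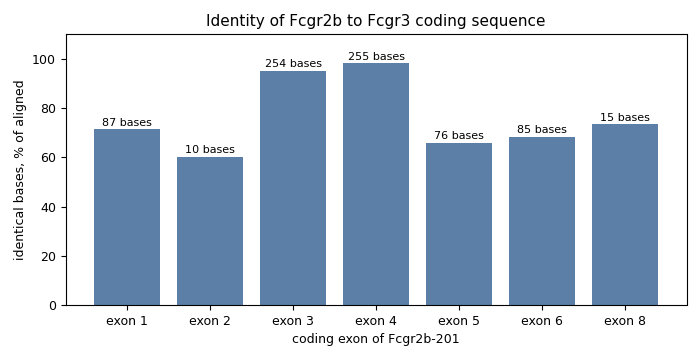
Identity of the Fcgr2b coding sequence to that of Fcgr3. The vertical axis gives the identical bases as a percent of the aligned bases, the horizontal axis the coding exons of Fcgr2b-201 that aligned, and the label on each bar the number of aligned bases; exons 3 and 4 reach 94.9% and 98.0%.

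The estimated counts carried a mark of this likeness. In none of the 12 libraries was the count of Fcgr2b or of Fcgr3 a whole number, yet in 12 of 12 libraries the sum of both was whole within 0.002 of a count. The counts of the other 4 genes were whole in 12 of 12 libraries by the same tolerance. Salmon therefore divided reads between Fcgr2b and Fcgr3, and the split is an estimate. Of all 31-base windows of Fcgr3-201, 17.7% were also in a transcript of Fcgr2b, and no other pair of the 6 genes shared a window of that length. With windows of 100 bases, the length of a read, the share was 3.53% for Fcgr3-201 and 1.28% for Fcgr2b-201. For this reason the sum of the pair, on which the split has no bearing, is given beside their separate values.

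The promoters of all 6 genes were found in the RefSeq table (GRCm38.p6, windows of 300 bases). They were searched on both strands for GAGGAA, the core of the PU box bound by the myeloid factor PU.1. GAGGAA was found once in the promoters of Fcgr1, Fcgr3 and Fcgr4, on the strand opposite to the gene (read there as TTCCTC), and was not in the windows of Fcgr2b, Fcer1g or Fcgrt. Of 32851 promoters in the table, 28.3% held GAGGAA. The first base of the GAGGAA match lay 55 bases before the start of Fcgr1, 22 before that of Fcgr4, and 6 or 15 before the 2 annotated starts of Fcgr3. A match is a description of these letters and not a bound site. The promoters of the activating receptors and, for contrast, of the inhibitory receptor are shown with the matches in capitals; they lie at chr3:96293920-96294219 (minus strand), chr1:171059354-171059653 (minus strand), chr1:171018676-171018975 (plus strand) and chr1:170976022-170976321 (minus strand).
Fcgr1: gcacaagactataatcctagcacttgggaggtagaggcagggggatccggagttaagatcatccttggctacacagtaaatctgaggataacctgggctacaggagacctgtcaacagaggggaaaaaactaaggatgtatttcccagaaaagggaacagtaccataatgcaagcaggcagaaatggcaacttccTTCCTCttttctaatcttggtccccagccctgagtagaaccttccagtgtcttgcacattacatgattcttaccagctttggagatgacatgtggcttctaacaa
Fcgr3: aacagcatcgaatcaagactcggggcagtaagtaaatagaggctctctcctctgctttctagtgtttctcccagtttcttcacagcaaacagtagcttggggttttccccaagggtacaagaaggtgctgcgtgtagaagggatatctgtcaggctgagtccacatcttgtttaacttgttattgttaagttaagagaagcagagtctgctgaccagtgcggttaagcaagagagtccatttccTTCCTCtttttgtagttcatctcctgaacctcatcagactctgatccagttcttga
Fcgr4: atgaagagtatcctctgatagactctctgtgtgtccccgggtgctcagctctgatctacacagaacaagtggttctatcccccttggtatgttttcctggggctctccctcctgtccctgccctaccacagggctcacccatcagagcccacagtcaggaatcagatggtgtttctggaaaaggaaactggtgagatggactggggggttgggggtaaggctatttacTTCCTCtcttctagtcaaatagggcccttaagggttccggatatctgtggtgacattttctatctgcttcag
Fcgr2b: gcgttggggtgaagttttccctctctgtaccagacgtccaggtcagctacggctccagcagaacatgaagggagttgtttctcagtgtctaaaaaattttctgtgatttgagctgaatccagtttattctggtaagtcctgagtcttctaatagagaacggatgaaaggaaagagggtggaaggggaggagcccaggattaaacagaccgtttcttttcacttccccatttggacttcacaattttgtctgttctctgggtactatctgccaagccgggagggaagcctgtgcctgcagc

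Libraries held 30513446 to 60540225 counts on genes, and a gene with 3 counts, the floor used here, would stand at 0.0524 to 0.0996 CPM, the count scaled to library size and normalised between libraries. WT CD replicate 3 stood apart, with a correlation to the other WT CD libraries of 0.793 and 0.795 against 0.904 between those, and the authors' deposited comparisons leave it out. Fold changes and tests were therefore taken over 11 libraries, with values over all 12 beside them. The 2 WT CD libraries kept were themselves less alike than any pair within the other groups (0.971 to 0.993). WT CD replicate 2 held transcripts of epididymal epithelium, with 12431 CPM of Crisp1, and HoipA-KO HFD replicate 1 held 1307 CPM. Rnf31 itself, targeted in adipocytes only, ranged from 12.01 to 22.5 CPM and did not separate the genotypes in whole tissue. Adipocyte markers were high in every library, with a summed level of 5387 to 38329 CPM over 8 genes. In bulk tissue, fewer cells of a type and less RNA per cell cannot be told apart.

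On the scale of CPM per kilobase of the longest coding transcript, Fcgrt had the highest level of the 6 genes in WT CD mice, with 93.6 ± 52.8 (SD, n = 3). Fcer1g followed with 27.2 ± 8.60 and Fcgr3 with 19.98 ± 2.10, which did not differ beyond their spread. Fcgr2b stood at 8.93 ± 2.96 with its longest coding transcript of 3544 bases. With the shortest coding transcript of each gene above a length cut, 1084 bases for Fcgr2b, it stood at 29.2. Fcer1g then stood at 27.6 and Fcgr3 at 20.3, so that the place of Fcgr2b depends on the transcript. Fcgr1 stood at 1.11 ± 0.222 and Fcgr4 at 0.757 ± 0.310 CPM per kilobase. In HoipA-KO CD mice the order had changed at its top. Fcer1g led with 479.5 ± 39.4 CPM per kilobase, ahead of Fcgr3 with 349.5 ± 49.8 and Fcgrt with 109.95 ± 23.6 (SD, n = 3). Fcgr2b stood at 31.7 with the longest transcript and at 103.6 with the shortest above the cut. Fcgr4 and Fcgr1 remained lowest with 20.7 ± 3.39 and 16.2 ± 0.765.

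**Figure D2:**
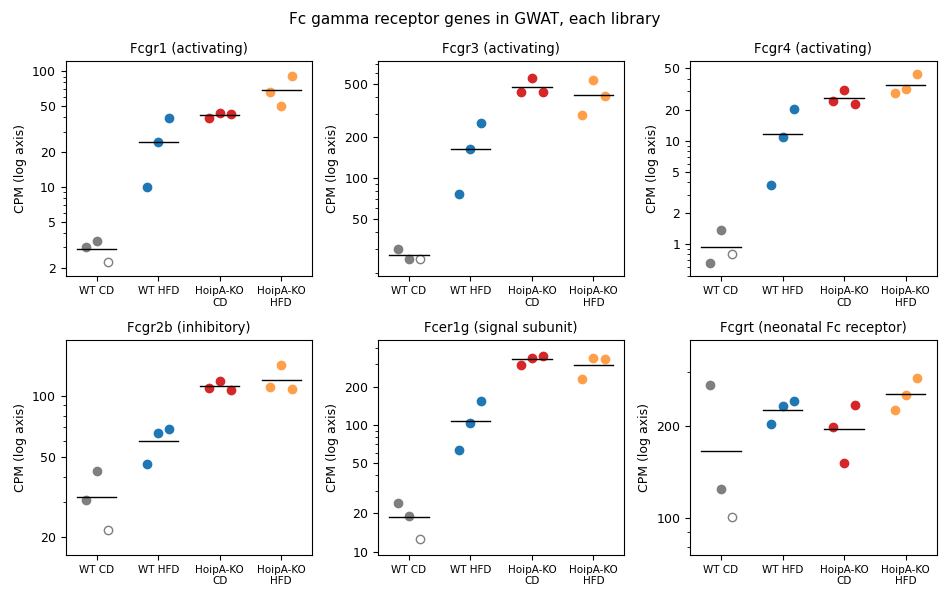
Level of each gene in every library. The vertical axes give CPM on a log scale, each point is 1 library (a pool of 3 mice), the lines are group means over all 3 libraries, and the open point is WT CD replicate 3; 5 genes are lowest in WT CD and highest in the HoipA-KO groups, whereas Fcgrt ranges from 100.5 to 286.8 CPM with overlapping groups.

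Fcgr3, a low-affinity activating receptor, stood at 30.2, 25.4 and 25.1 CPM in WT CD replicates 1 to 3 and at 433.2, 548.3 and 431.1 CPM in HoipA-KO CD. On HFD it stood at 76.3, 164.3 and 253.3 CPM in WT and at 294.7, 531.6 and 401.8 CPM in HoipA-KO. All HoipA-KO libraries lay above all WT libraries, and the WT HFD libraries lay between WT CD and HoipA-KO and spread widely among themselves. How many of all genes separate the genotypes in this way was not counted, here or for the genes below.

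Fcgr4 is an activating receptor of neutrophils, monocytes and macrophages. Its levels were 0.658, 1.39 and 0.803 CPM in WT CD, or 27, 65 and 46 counts, which lay above the floor in each library. They were 3.78, 10.9 and 20.2 CPM in WT HFD. HoipA-KO libraries held 24.3, 30.8 and 22.8 CPM on CD and 29.1, 31.7 and 44.1 CPM on HFD. The lowest HoipA-KO library, with 22.8 CPM, thus lay just above the highest WT library, with 20.2 CPM.

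Fcgr1, the high-affinity receptor, followed the same order. It stood at 3.00, 3.38 and 2.25 CPM in WT CD and at 39.7, 43.4 and 42.9 CPM in HoipA-KO CD. In WT HFD its levels were 10.1, 24.6 and 39.2 CPM, and in HoipA-KO HFD they were 66.0, 49.7 and 91.6 CPM. Its HoipA-KO libraries on HFD all lay above those on CD, but edgeR called neither this difference nor that of any other gene tested.

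Fcer1g, whose γ chain all 3 activating receptors need at the cell surface, moved with them. It stood at 24.2, 19.1 and 12.5 CPM in WT CD, at 63.4, 102.5 and 153.1 CPM in WT HFD, at 297.2, 336.8 and 348.5 CPM in HoipA-KO CD and at 230.6, 336.1 and 329.2 CPM in HoipA-KO HFD. The summed CPM of the activating receptors was 1.40 to 2.26 times that of Fcer1g in all 12 libraries, so that receptor and subunit kept pace over a range in which each changed many-fold.

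Fcgr2b, the inhibitory receptor, stood at 30.5, 42.6 and 21.7 CPM in WT CD and at 45.9, 66.1 and 69.0 CPM in WT HFD. In HoipA-KO it stood at 110.2, 119.4 and 107.3 CPM on CD and at 111.3, 142.2 and 109.0 CPM on HFD. The groups did not overlap between genotypes, and the 2 HoipA-KO groups overlapped.

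Fcgrt, the neonatal Fc receptor, did not follow this order. It stood at 272.8, 123.8 and 100.5 CPM in WT CD, at 202.5, 232.2 and 241.6 CPM in WT HFD, at 198.4, 151.1 and 234.3 CPM in HoipA-KO CD and at 225.0, 251.6 and 286.8 CPM in HoipA-KO HFD. Both the second highest and the lowest library were WT CD libraries, and WT CD overlapped with each of the other groups.

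In HoipA-KO against WT mice on CD, which asks what the loss of HOIP in adipocytes does without a high-fat diet, 5 of the 6 genes rose, as did 18.9% of all genes tested. Of the activating receptors, Fcgr4 rose by 25.8-fold (log2 fold change 4.69 ± 0.70 SE, adjusted p = 0.00110), Fcgr3 by 17.4-fold (4.12 ± 0.52, adjusted p = 0.000591) and Fcgr1 by 13.5-fold (3.75 ± 0.53, adjusted p = 0.000917). Adjusted p-values came from the quasi-likelihood test of edgeR, with Benjamini-Hochberg adjustment across the whole table. Fcer1g rose 15.5-fold (3.95 ± 0.39, adjusted p = 0.000452). Fcgr2b rose 3.14-fold (1.65 ± 0.24, adjusted p = 0.000951), the smallest estimate of the 5. The sum of Fcgr2b and Fcgr3 rose 9.29-fold (3.22 ± 0.42, adjusted p = 0.000668). Over all 12 libraries the same 5 genes rose, beside 15.6% of all genes, and no alternative took one of these calls away.

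For Fcgrt the log2 difference on CD was 0.01 ± 0.30, with a 95% interval of -0.67 to 0.68 (adjusted p = 0.991, edgeR). This value rested on WT CD replicate 1, the library with 272.8 CPM. With WT CD taken from replicates 2 and 3 instead, the difference was 0.78 (adjusted p = 0.0163), and over all 12 libraries it was 0.21 ± 0.32 (adjusted p = 0.629). B2m, the light chain of FcRn, stood at 1513, 1908 and 598.2 CPM in WT CD and between 1130 and 1273 CPM in HoipA-KO CD, and was not called either.

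**Figure D3:**
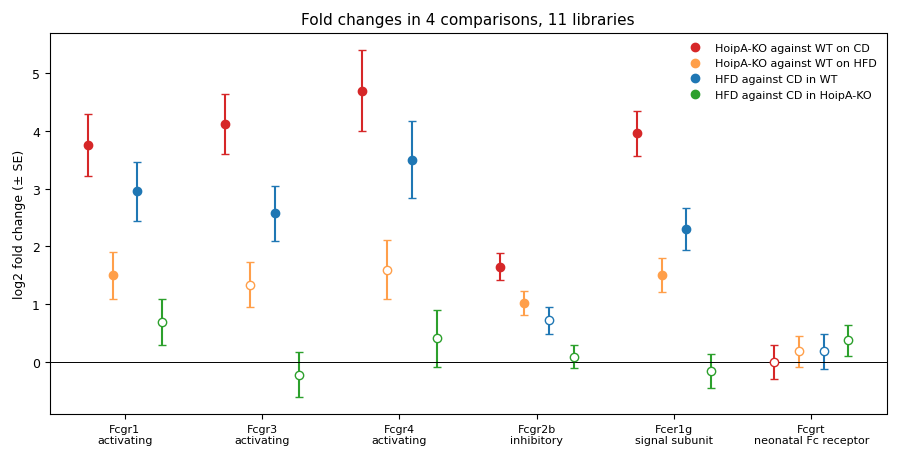
Log2 fold change of each gene in 4 comparisons over 11 libraries. Points are estimates and bars their standard errors, filled points passed an adjusted p of 0.05, and open points did not; the red points (HoipA-KO against WT on CD) stand between 3.75 and 4.69 for the activating receptors, at 1.65 for Fcgr2b and at 0.01 for Fcgrt.

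In HoipA-KO against WT mice on HFD, 3 of the 6 genes rose, beside 4.20% of all genes tested. Fcer1g rose 2.85-fold (log2 1.51 ± 0.30, adjusted p = 0.0175), Fcgr1 rose 2.84-fold (1.50 ± 0.41, adjusted p = 0.0428) and Fcgr2b rose 2.03-fold (1.02 ± 0.20, adjusted p = 0.0172) in edgeR's quasi-likelihood test. Fcgr4 (1.60 ± 0.50, adjusted p = 0.0656) and Fcgr3 (1.34 ± 0.39, adjusted p = 0.0534) did not pass that test, nor did Fcgrt (0.19 ± 0.27, adjusted p = 0.646). The sum of Fcgr2b and Fcgr3 rose 2.39-fold (1.26 ± 0.33, adjusted p = 0.0401). Over all 12 libraries 1 gene, Fcer1g, was called (adjusted p = 0.0428), beside 0.531% of all genes. Without WT HFD replicate 1, WT HFD replicate 2, HoipA-KO HFD replicate 2 or HoipA-KO HFD replicate 3 the count was 0 of 6, and without WT HFD replicate 3 or WT CD replicate 2 it was 5. In the fits with a count of 0, between 279 and 550 of all genes were called, against 2179 with all 11 libraries and 2601 without WT HFD replicate 3. The call of Fcgr1 held under 10 of 22 alternatives. It was also lost without any 1 of the HoipA-KO CD libraries (adjusted p = 0.0594 to 0.0692), without HoipA-KO HFD replicate 1 (0.0636), with the 2 groups fitted alone (0.0734), and with WT CD from replicates 2 and 3 (0.0734) or 1 and 3 (0.0766), all by edgeR.

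HFD against CD in WT mice, the ordinary course of diet-induced obesity, raised 4 of the 6 genes, beside 9.35% of all genes tested. Fcgr4 rose 11.3-fold (log2 3.50 ± 0.66, adjusted p = 0.0106), Fcgr1 7.73-fold (2.95 ± 0.51, adjusted p = 0.00805), Fcgr3 5.94-fold (2.57 ± 0.48, adjusted p = 0.00981) and Fcer1g 4.93-fold (2.30 ± 0.36, adjusted p = 0.00658) in edgeR's quasi-likelihood test. The log2 difference of Fcgr2b was 0.72 ± 0.23 (adjusted p = 0.0599) over 11 libraries and 0.90 ± 0.24 (adjusted p = 0.0350) over all 12, where 5 of 6 genes rose beside 9.05% of all genes. For the sum of Fcgr2b and Fcgr3 the rise was 3.50-fold (1.81 ± 0.39, adjusted p = 0.0171). Fcgrt differed by 0.19 ± 0.30 (adjusted p = 0.702), and by 0.99 (adjusted p = 0.00792) with WT CD from replicates 2 and 3. Without WT CD replicate 1 its difference was 0.88, with replicate 2 the only WT CD library. Without WT CD replicate 2, the library with epididymal transcripts, the difference of Fcgr3 was 2.46, with replicate 1 the only WT CD library. With WT CD from replicates 1 and 3, Fcgr3 was still called. With the 2 WT groups fitted alone, none of the 6 genes passed, with adjusted p of 0.0861 for Fcer1g to 0.108 for Fcgr4 among the 4.

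Within HoipA-KO mice the diets were not told apart. None of the 6 genes was called between HFD and CD in HoipA-KO, where 0% of all genes tested were called by edgeR, 415 of 18427 genes had an unadjusted p under 0.05, and DESeq2 called 9 genes and none of the 6. Same-numbered libraries of these 2 groups deviated together, and with the HoipA-KO groups fitted alone as pairs edgeR called 0 of the 6 and 0 of 16826 genes, 1300 of them at an unadjusted p under 0.05. In that fit the log2 differences ranged from -0.23 for Fcgr3 to 0.68 for Fcgr1. Over the 11 libraries they were 0.70 ± 0.40 for Fcgr1, 0.41 ± 0.49 for Fcgr4, 0.38 ± 0.27 for Fcgrt, 0.09 ± 0.20 for Fcgr2b, -0.14 ± 0.29 for Fcer1g and -0.21 ± 0.38 for Fcgr3. The 95% interval for Fcgr2b was -0.35 to 0.54, and that for Fcgrt was -0.22 to 0.98. For the sum of Fcgr2b and Fcgr3 the difference was -0.15 ± 0.33 and was not called.

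The interaction of genotype and diet, the genotype difference on HFD less that on CD, tests whether the genotype effect depended on the diet. It was past the threshold for 2 of the 6 genes, both lower, beside 3.58% of all genes tested that were lower. These were Fcgr3 (-2.78 ± 0.60, adjusted p = 0.0385) and Fcer1g (-2.44 ± 0.45, adjusted p = 0.0281) in edgeR's quasi-likelihood test. The estimates for Fcgr4 (-3.09 ± 0.79, adjusted p = 0.0648) and Fcgr1 (-2.25 ± 0.62, adjusted p = 0.0788) did not pass. Fcgr2b (-0.63 ± 0.30, adjusted p = 0.245) and Fcgrt (0.19 ± 0.40, adjusted p = 0.821) did not pass either. For the sum of Fcgr2b and Fcgr3 the interaction was -1.96 ± 0.50 (adjusted p = 0.0643). Over all 12 libraries 3 genes passed, Fcgr3, Fcgr4 and Fcer1g, beside 2.70% of all genes. When 1 library was left out the count ranged from 0 to 4, and it was 0 without WT CD replicate 2, WT HFD replicate 2, HoipA-KO HFD replicate 1, HoipA-KO HFD replicate 3 or any 1 of the HoipA-KO CD libraries, 1 without WT HFD replicate 3 and 4 without WT HFD replicate 1. In the 7 fits with a count of 0, only 1 to 4 of all genes were called, against 721 with all 11 libraries.

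HoipA-KO mice on CD were also set against WT mice on HFD. Of the 6 genes, 3 were higher in HoipA-KO CD, beside 6.78% of all genes tested, namely Fcer1g (3.15-fold, log2 1.65 ± 0.30, adjusted p = 0.0125), Fcgr3 (2.93-fold, 1.55 ± 0.39, adjusted p = 0.0295) and Fcgr2b (1.90-fold, 0.93 ± 0.20, adjusted p = 0.0185). Fcgr4 (1.19 ± 0.50, adjusted p = 0.126), Fcgr1 (0.80 ± 0.40, adjusted p = 0.193) and Fcgrt (-0.19 ± 0.27, adjusted p = 0.665) did not pass edgeR's quasi-likelihood test. The sum of Fcgr2b and Fcgr3 was 2.65-fold higher (1.41 ± 0.33, adjusted p = 0.0239, edgeR). Over all 12 libraries Fcgr3 and Fcer1g, 2 genes, were called beside 1.71% of all genes. Without WT HFD replicate 2 the count was 0 of 6, where 549 of all genes were called against 2920 with the 11 libraries, without WT HFD replicate 1 or any 1 of the HoipA-KO CD libraries it was 1 (Fcer1g), and without WT HFD replicate 3 it was 5. These comparisons share libraries, so their values are not independent of each other.

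The contrast of activating with inhibitory receptors was put into 1 value per library, the summed CPM of Fcgr1, Fcgr3 and Fcgr4 divided by the CPM of Fcgr2b. CPM were not scaled to length here, so only changes of this ratio between groups can be read. Most of the sum was Fcgr3. Its own ratio to Fcgr2b averaged 0.914 in WT CD and 4.18 in HoipA-KO CD, against 1.04 and 4.78 for the sum (n = 3). The value thus rests mainly on the pair between which Salmon divided reads, and that split is an estimate. It was 1.11, 0.708 and 1.30 in WT CD and 1.96, 3.02 and 4.53 in WT HFD. Among HoipA-KO libraries it was 4.51, 5.21 and 4.63 for CD, against 3.50, 4.31 and 4.93 for HFD. All WT CD libraries lay below all others. WT HFD reached from below to within the range of HoipA-KO, and the 2 HoipA-KO groups overlapped. On the log2 scale the ratio was -0.17 ± 0.46 in WT CD (SD, n = 2) and 1.58 ± 0.60 in WT HFD, and for HoipA-KO it was 2.26 ± 0.11 on CD against 2.07 ± 0.25 on HFD (SD, n = 3). On CD the genotypes differed by 2.43, and in WT the diets differed by 1.76, each more than the SD of either group. On HFD the genotypes differed by 0.49 and in HoipA-KO the diets by -0.18, each within the larger SD of the groups compared. No p is given for this score. Leaving out each library in turn moved no difference by more than the spread between replicates. Nor did leaving out Fcgr1, which could move it little because Fcgr1 was a small part of the sum. With Fcgr4 alone in place of the sum the genotypes differed by 3.11 on CD, a shift larger than that spread.

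**Figure D4:**
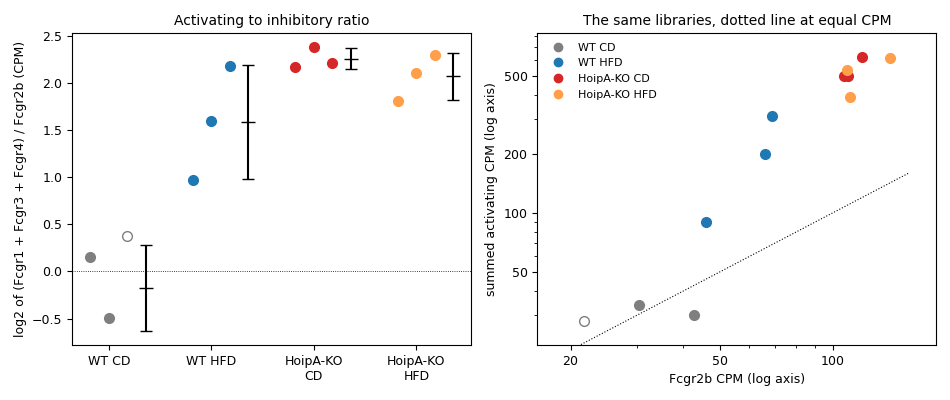
Balance of activating and inhibitory receptors, where the activating sum is mostly Fcgr3 and the split of reads between Fcgr3 and Fcgr2b is an estimate. Left, log2 of the summed CPM of Fcgr1, Fcgr3 and Fcgr4 over that of Fcgr2b in each library, with the mean and SD of each group (WT CD without replicate 3, the open point); right, the sum against Fcgr2b in the same libraries on log axes, where the WT CD libraries lie near the line of equal CPM (ratios of 0.708 to 1.30) and the HoipA-KO libraries 3.50 to 5.21 times above it.

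The ratios of Fcgr1 and Fcgr4 to Fcgr3 varied more between pools in HoipA-KO mice on HFD than on CD. Fcgr1 stood at 0.0792 to 0.0995 of the CPM of Fcgr3 in HoipA-KO CD and at 0.224, 0.0934 and 0.228 in HoipA-KO HFD replicates 1 to 3. Fcgr4 stood at 0.0530 to 0.0563 of Fcgr3 in HoipA-KO CD and at 0.0987, 0.0596 and 0.110 in HoipA-KO HFD. In replicates 1 and 3 of HoipA-KO HFD both ratios thus lay above those of all HoipA-KO CD libraries, and in replicate 2 they lay within the CD range or just above it. Other transcripts differed between these pools too. The summed level of 6 markers of epididymal epithelium was 1309.6, 0 and 88.4 CPM in HoipA-KO HFD replicates 1 to 3, and that of 5 monocyte markers was 299.1, 194.4 and 254.7 CPM. Their part in the ratios was not tested.

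Macrophage markers moved with the receptors. All 10 macrophage genes looked at were detected in every library, and their summed level was 469.6 to 810.5 CPM in WT CD, 2103 to 6225 CPM in WT HFD, and in HoipA-KO 9901 to 12743 CPM on CD and 7862 to 11874 CPM on HFD. On CD 9 of 10 rose in HoipA-KO, beside 18.9% of all genes tested. By edgeR's quasi-likelihood test, Cd68, a lysosomal protein of macrophages, rose by log2 5.86 ± 0.65 (adjusted p = 0.000464). Adgre1, the F4/80 antigen, rose by 4.92 ± 0.72 (adjusted p = 0.00102, edgeR). Csf1r, the receptor of the macrophage growth factor CSF1, rose by 3.55 ± 0.44 (adjusted p = 0.000565, edgeR). Set against this sum, Fcgr3 was 3.63% to 4.55% of the macrophage sum in the 11 libraries, a 1.26-fold range, and 5.35% in WT CD replicate 3. Fcer1g was 2.46% to 3.73% in all 12 libraries, a 1.52-fold range. Over the same libraries the macrophage sum itself spanned more than an order of magnitude.

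Fcgr2b and Fcgrt did not keep pace with the macrophage sum. Fcgr2b was 3.77% to 7.32% of it in WT CD, 1.11% to 2.18% in WT HFD, and in HoipA-KO 0.937% to 1.11% on CD and 1.20% to 1.42% on HFD. Fcgrt was 21.3% to 33.7% of it in WT CD and 1.19% to 2.23% in HoipA-KO CD. Its CPM overlapped between these groups, and the share of a gene with a steady level falls as the sum rises. Fcgr1 ranged from 0.341% to 1.04% and Fcgr4 from 0.0812% to 0.499%, with their highest shares in HoipA-KO HFD replicate 3. The part of macrophage number in the fold changes of the receptors was not tested.

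**Figure D5:**
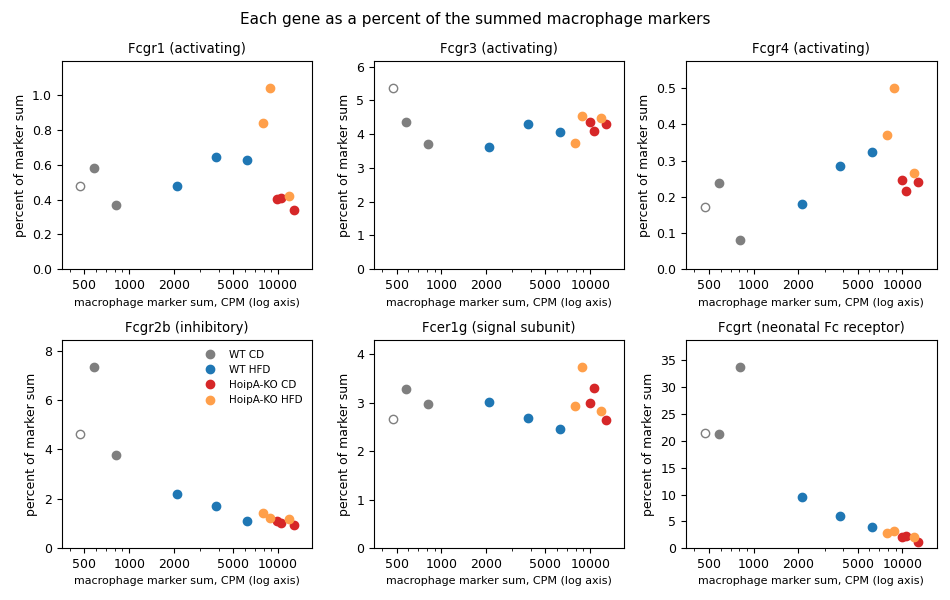
Each gene as a percent of the summed CPM of 10 macrophage markers (vertical axes, from 0) against that sum (horizontal axes, log scale) in each library; the open point is WT CD replicate 3. Fcgr3 and Fcer1g stay within 3.63% to 5.35% and 2.46% to 3.73%. Fcgr2b falls from 7.32% to 0.937% and Fcgrt from 33.7% to 1.19% as the sum rises. The sum is also the denominator, so a gene with a steady level falls too.

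Of the markers of other cells, those of mast cells rose on CD in 4 of 5 cases, beside 18.9% of all genes tested, with a summed level of at most 30.4 CPM in WT CD, 27.4 to 209.4 CPM in WT HFD, and in HoipA-KO 548.5 to 657.4 CPM on CD and 305.5 to 805.6 CPM on HFD. With them went the other partners of the γ chain, the chains of the IgE receptor FcεRI. Fcer1a (adjusted p = 0.00402) and Ms4a2 (adjusted p = 0.00284) rose on CD by edgeR's quasi-likelihood test. Fcer1a stood at 9.99 to 18.5 CPM in HoipA-KO CD and at no more than 0.128 CPM in WT CD, close to the floor. Both were named after their values were seen. Of 13 other Fc receptor genes, 11 were tested, and 4 rose and 1 fell on CD. Trim21, a cytosolic Fc receptor, rose by 0.48 (adjusted p = 0.0402), and Fcrls differed by 0.31 (adjusted p = 0.287, edgeR). Neutrophil markers summed to 2.98 to 26.2 CPM outside HoipA-KO HFD replicate 1, which had 88.4 CPM. Natural killer cell markers summed to 2.63 to 9.12 CPM, and B and plasma cell markers to 3.50 to 31.8 CPM with none of 6 called on CD. On CD 2 of 5 monocyte, 1 of 5 neutrophil and 1 of 5 natural killer cell markers rose, 1 of 6 dendritic cell markers rose and 1 fell, and 1 of 6 endothelial markers rose and 3 fell. Shares of 1 of 5 or 1 of 6 are near the 18.9% of all genes that rose and the 18.8% that fell. Of 8 adipocyte markers 7 fell. The part of these cells in the levels of the receptors was not tested.

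Transcripts of immunoglobulin genes in GWAT gave no called change, and IgG protein, the ligand itself, was not measured here. Of 9 immunoglobulin constant and joining chain genes none was called on CD or HFD. Ighm, the heavy chain of IgM, stood at 281.0 to 650.7 CPM in WT CD and at 237.2 to 497.1 CPM in HoipA-KO CD. The IgG heavy chain genes varied many-fold between pools of 1 group, with Ighg2b at 0.0974, 15.8 and 21.6 CPM in WT CD. Ighg2b was named after its values were seen. Igkc and Igha, the other abundant genes of the list, had adjusted p of 0.710 and 0.115 on CD (edgeR).

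Signalling genes on both sides of the pathway rose together with the receptors. Of 18 genes of activating signalling, 16 rose on CD, beside 18.9% of all genes tested. The median log2 difference of this list was 3.38 against -0.06 over all genes tested. Tyrobp, the adaptor DAP12 with an ITAM, rose most of those named (5.04 ± 0.57, adjusted p = 0.000493), and Syk, the kinase that binds the phosphorylated ITAM, rose by 4.20 ± 0.55 (adjusted p = 0.000677). Of 18 genes of inhibitory signalling and ITIM receptors, 15 rose on CD, beside the same 18.9%, with a median of 3.33. Sirpa, the inhibitory receptor for CD47, rose by 3.73 ± 0.47 (adjusted p = 0.000582), Pirb, a receptor of MHC class I, by 4.79 ± 0.56 (adjusted p = 0.000513), and Inpp5d, the phosphatase used by FcγRIIb, by 3.36 ± 0.42 (adjusted p = 0.000582, edgeR). Inpp5d was named after its values were seen. The estimate for Fcgr2b, 1.65, lay below both medians. Over all 12 libraries, where the median of all genes tested was -0.21, 14 and 13 of 18 rose, beside 15.6% of all genes. Ptpn11, the phosphatase SHP2, which most cells express, differed by -0.64 (adjusted p = 0.0589).

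On HFD, 5 of 18 activating and 3 of 18 inhibitory signalling genes rose in HoipA-KO, beside 4.20% of all genes tested. The medians of the lists were 1.10 and 1.01 against 0.06 over all genes. In WT mice, HFD raised 13 of 18 and 11 of 18, beside 9.35% of all genes tested, with medians of 2.16 and 2.22. Prkcd, a kinase of the same pathway, stood at 23.8, 75.9 and 123.3 CPM in WT CD and was called on CD (2.38, adjusted p = 0.0102, edgeR) but not for the diet in WT (0.82, adjusted p = 0.316, edgeR). The interaction was lower in 11 of 18 activating and 7 of 18 inhibitory genes, beside 3.58% of all genes tested. These counts rest on all 11 libraries, since without any 1 of the 7 libraries named above for the interaction only 1 to 4 genes of the whole table were called.

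Across the 12 libraries Pearson's r of log2(CPM + 1) was 0.938 to 0.992 among the 5 genes other than Fcgrt, highest between Fcgr3 and Fcer1g (0.992) and between Fcgr1 and Fcgr4 (0.991). Between Fcgrt and the other genes it was 0.486 to 0.577. The 12 points share groups, depth and tissue makeup, so these values describe the data and carry no test. Among 10237 other genes with a mean of at least 10 CPM, those most like Fcgr3 were Laptm5 (r = 0.998), Lat2 and Apbb1ip, and those most like Fcer1g were Ctsk (0.998), Unc93b1 and Gpsm3. Fcgr1 was most like Ly86 (0.993), Fbln7 and Oas1a, and Fcgr4 most like Gpr176 (0.997), Oas1a and Mcm6, so that Oas1a, an interferon-induced gene, stood in both lists. Fcgr2b was most like Sdc1 (0.989), Clic1 and Ifi30. Fcgrt was most like Parp10 (0.962), Mill2 and Sema6b, with lower values than those of any other member.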

How the data were processed

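Bulk RNA sequencing (poly(A) selected, stranded kit) covered 12 GWAT libraries. Per the submitters' processing notes, the authors trimmed reads with Trim Galore 0.6.7, aligned them with STAR 2.7.10a and estimated counts per gene with Salmon 1.5.2. The deposited values are estimated counts without normalization. The notes name GRCm38, the methods a human build. Gene positions came from GENCODE M21 (GRCm38), and the strand setting of the counting is not given in the sources used here. Deposited DESeq2 comparisons (fold changes, p-values) were not used.

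Estimated counts were rounded, filtered with filterByExpr, normalised by TMM and fitted as 4 group means with edgeR 4.0.16 (R 4.3.3). Contrasts were tested by quasi-likelihood with Benjamini-Hochberg adjustment at 0.05. Printed CPM were normalised over all 12 libraries. SD are between pools. Each library was left out of the 11 in turn, so without WT CD replicate 1 or 2 that group held 1 library. Members, lists and the choice of 11 libraries were made with earlier results of these data known. Named genes are the 6 members, the 3 most abundant genes of a pathway list, Adgre1, Cd68 and Csf1r, Rnf31, and the 3 genes most like each member, with exceptions marked. Alternatives were other normalizations and filters, protein-coding genes, all 12 libraries, other pairs of WT CD libraries, a replicate block, DESeq2 1.42.0, 2 groups alone, leaving out each library and, added after seeing the data, Fcgr2b and Fcgr3 summed and the HoipA-KO groups alone with a replicate block. Same-numbered libraries of HoipA-KO CD and HFD deviated together (r of 0.139, 0.499 and 0.277), so their diet comparison was also fitted as pairs. Between the other groups they did not in every pair (r of -0.371 to 0.371), so those numbers were not used as pairs.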

Additional observations from a re-analysis of the deposited data

Results flagged for a closer look

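The genotype effect differed between the diets by the test of the interaction (quasi-likelihood test of edgeR, Benjamini-Hochberg adjusted, 11 libraries) for 10 of 22 genes, namely 2 of the 6 receptor genes, 3 of 3 macrophage markers, 5 of 7 signalling genes (the 3 most abundant of each list and Inpp5d, chosen after its values were seen) and none of the 6 most abundant other Fc receptor and immunoglobulin genes, beside 3.58% of all genes tested that were lower. Among the receptor genes these were Fcgr3 (log2 -2.78 ± 0.60 SE, adjusted p = 0.0385) and Fcer1g (-2.44 ± 0.45, adjusted p = 0.0281). Among the signalling genes they were Tyrobp (-3.53), Pirb (-3.50), Syk (-3.23), Sirpa (-2.49) and Inpp5d (-2.28), and among the macrophage markers Cd68 (-4.29), Adgre1 (-4.00) and Csf1r (-2.52), with adjusted p of 0.0256 to 0.0421. In each of these genes the difference between HoipA-KO and WT was larger on CD than on HFD. None of the 10 was called without WT CD replicate 2, WT HFD replicate 2, HoipA-KO HFD replicate 1, HoipA-KO HFD replicate 3 or any 1 of the HoipA-KO CD libraries, where only 1 to 4 of all genes were called against 721 with the 11 libraries. Each gene was called in 2 to 4 of the 11 fits that left out 1 library. With 3 or fewer libraries in a group, no single library was tested for standing apart.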

How the results depend on the processing

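No called value changed its sign under any alternative run. The difference of Fcgrt on CD was not called with the 11 libraries. It ranged from -0.45 without WT CD replicate 2, which left 1 WT CD library, to 0.78 with WT CD from replicates 2 and 3. On CD the count of receptor genes called was 5 or 6 under each of 22 alternatives, and in HoipA-KO the diet called 0 under each of 23. The other counts depended on the settings. For HoipA-KO against WT on HFD (3 genes) it was 5 with at least 10 counts in every library, 5 with DESeq2 and 1 over all 12 libraries, and 0 to 5 when 1 library was left out. For HFD against CD in WT (4 genes) it was 0 with the 2 groups fitted alone, 6 with WT CD from replicates 2 and 3 (where Fcgr2b, 0.89, adjusted p = 0.0357, and Fcgrt, 0.99, adjusted p = 0.00792, were called too by edgeR), 5 over 12 libraries, with WT CD from replicates 1 and 3 or with DESeq2, and 3 to 5 when 1 library was left out. For HoipA-KO CD against WT HFD (3 genes) it was 0 to 5 when 1 library was left out. For the interaction (2 genes) it was 4 with WT CD from replicates 2 and 3, 1 from replicates 1 and 3, 4 with DESeq2, and 0 to 4 when 1 library was left out. The log2 ratio of activating to inhibitory receptors with Fcgr4 alone was 3.11 on CD (2.43 with the sum), 2.58 for the diet in WT (1.76) and 0.32 for the diet in HoipA-KO (-0.18). The cause was not tested.

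With the replicate block the count was 5 on HFD, 5 for the diet in WT and 1 for the interaction, where Fcgr3 was no longer called (adjusted p = 0.0690, edgeR). Of 15 pairs of libraries with the same number, 6 had a correlation of deviations over 0.1. All 3 pairs of HoipA-KO CD with HoipA-KO HFD did, so the pairing was used for the diet in HoipA-KO, where the block, over 4 groups or over those 2 alone, called 0 genes. In the other comparisons the pairing is by number only.

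Over all genes, the calls on HFD were 2179 of 18427, against 503 of 18074 over 12 libraries and 2561 with the replicate block. They were 2663 of 14339 with at least 10 counts in every library and 4397 of the 31499 genes in the DESeq2 fit. For the diet in WT they were 2731, against 0 with the 2 groups alone, 4725 with DESeq2 and 1502 with the replicate block. With WT CD from replicates 2 and 3 they were 7046 of 19416, and from replicates 1 and 3 they were 3080 of 18556. For HoipA-KO CD against WT HFD they were 2920, against 999 over 12 libraries, 4937 with DESeq2 and 3064 without WT HFD replicate 3. For the interaction they were 721, against 3550 with WT CD from replicates 2 and 3 and 326 with replicates 1 and 3. There they were 2414 with DESeq2, 377 with the replicate block and 999 without WT HFD replicate 1. On CD they were 6947, against 4208 with the 2 groups alone. For the diet in HoipA-KO they were 0, against 9 with DESeq2. Summing Fcgr2b and Fcgr3, an alternative chosen after seeing the data like the paired HoipA-KO fit, is given beside each comparison. Groups of 2 or 3 pools limit each estimate of spread.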
